A study of Mus musculus with 15 samples.

Results

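Small nucleolar RNAs (snoRNAs) and small Cajal body RNAs (scaRNAs) were examined in total RNA of the mouse thalamus after repeated saline or cocaine injections. The RNAs were taken by name, as every listed gene whose symbol starts with Snora, Snord or Scarna followed by a digit. This gave 118 of the 25080 listed genes, made up of 36 box H/ACA snoRNAs (Snora), 73 box C/D snoRNAs (Snord) and 9 scaRNAs (Scarna). Of these, 57 reached at least 1 TPM (a length-corrected share of the transcripts of a library) in at least 3 libraries and were tested among the 13471 genes that did so, namely 32 H/ACA snoRNAs, 18 C/D snoRNAs and 7 scaRNAs. The other 61 were below that level, and 10 of them were above 0 in some library.

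All mice carried a floxed Maged1 gene, were 2 to 4 months old, and received saline for 3 days before 5 days of either saline or cocaine at 20 mg/kg, given intraperitoneally. In the conditional knockout (cKO), Cre recombinase was driven by the vGluT2 promoter, which is active in glutamatergic neurons, so that other cells of the thalamus keep the gene. The controls are named Maged1 WT in the sample titles and Maged1 Loxp in the genotype field. There were 4 control saline, 4 cKO saline, 4 control cocaine and 2 cKO cocaine libraries, and the third cKO cocaine sample was not analysed here. The study calls its samples independent, and p-values measure the spread between these libraries. Its methods give the numbers of saline and cocaine samples the other way round from the sample titles, which were followed here.

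The targeted gene did not follow the genotype labels after cocaine. Maged1 was at 164 to 189 TPM in the libraries labelled control saline and at 69.2 to 89.4 TPM in those labelled cKO saline, but at 49.7 to 76.7 TPM in those labelled control cocaine and at 144 and 140.4 TPM in those labelled cKO cocaine. In 4 saline libraries the genotype field and the title also disagree. Groups are therefore named by their titles as labels only, and the main comparison is cocaine against saline, averaged over both genotype labels.

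SnoRNAs work as guides inside RNA-protein particles. Box C/D snoRNAs bind fibrillarin and direct methylation of the ribose of the RNA they pair with, and box H/ACA snoRNAs bind dyskerin and direct the change of uridine to pseudouridine, mostly in ribosomal RNA. ScaRNAs carry the same boxes, reside in Cajal bodies and guide the same changes in the small nuclear RNAs of the spliceosome. Most are trimmed out of introns of host genes, many of which encode ribosomal proteins or noncoding transcripts, and brain-enriched C/D snoRNAs of the Snord116 cluster come from the imprinted Prader-Willi region.

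The sequences below are those on which the results turn, given 5′ to 3′ as DNA letters on the strand of the gene, from the GENCODE M21 gene models on GRCm38. Capitals mark the ACA box of the H/ACA RNAs and the C box (TGATGA) and D box (CTGA) of the C/D RNAs. Scarna13, at chr12:105031075-105031349 (minus strand), Snora78, at chr17:24719676-24719803 (minus strand), and Snora30, at chr7:127527874-127528003 (plus strand), are members with long models whose TMM-scaled values did not overlap between cocaine and saline. Snord17, at chr2:144265979-144266216 (minus strand), was lower after cocaine.
Scarna13: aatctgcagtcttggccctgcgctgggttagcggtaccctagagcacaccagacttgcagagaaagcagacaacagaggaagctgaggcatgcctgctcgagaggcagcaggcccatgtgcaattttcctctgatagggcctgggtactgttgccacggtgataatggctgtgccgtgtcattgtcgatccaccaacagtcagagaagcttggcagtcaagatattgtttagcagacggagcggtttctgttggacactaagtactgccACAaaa
Snora78: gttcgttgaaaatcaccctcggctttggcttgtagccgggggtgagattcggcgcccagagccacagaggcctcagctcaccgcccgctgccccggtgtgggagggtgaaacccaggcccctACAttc
Snora30: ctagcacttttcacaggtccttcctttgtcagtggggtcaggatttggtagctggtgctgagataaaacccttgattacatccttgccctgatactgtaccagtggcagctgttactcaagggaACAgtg
Snord17: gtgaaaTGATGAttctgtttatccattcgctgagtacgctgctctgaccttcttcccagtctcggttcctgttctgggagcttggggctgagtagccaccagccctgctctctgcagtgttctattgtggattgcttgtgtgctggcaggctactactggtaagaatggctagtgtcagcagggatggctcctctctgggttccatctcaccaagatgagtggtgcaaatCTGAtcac

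The next set has shorter models, for which the value of the smallest step in TPM itself differed between cocaine and saline libraries, as described below. Snora5c lies at chr11:6620319-6620454 (minus strand), inside the protein-coding gene Tbrg4. Snord14c, at chr9:40803583-40803668 (plus strand), and Snord14d, at chr9:40803995-40804080 (plus strand), are neighbouring copies in the Hspa8 gene. Snord116l2, at chr7:59876933-59877026 (minus strand), varied widely between libraries. For Scarna2, whose GENCODE gene spans 414 nucleotides (nt) at chr3:108554338-108554751 (minus strand), the run shown is the 61-nt stretch that the RefSeq model covers, bases 350 to 410 of the gene.
Snora5c: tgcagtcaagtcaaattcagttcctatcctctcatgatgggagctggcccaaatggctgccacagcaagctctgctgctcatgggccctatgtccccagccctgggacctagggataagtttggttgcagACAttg
Snord14c: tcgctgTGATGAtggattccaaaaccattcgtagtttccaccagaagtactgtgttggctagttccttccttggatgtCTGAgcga
Snord14d: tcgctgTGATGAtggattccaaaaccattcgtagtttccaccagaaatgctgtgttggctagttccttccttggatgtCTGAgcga
Snord116l2: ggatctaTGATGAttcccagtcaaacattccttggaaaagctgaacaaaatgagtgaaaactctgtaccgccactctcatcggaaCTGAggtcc
Scarna2, model stretch: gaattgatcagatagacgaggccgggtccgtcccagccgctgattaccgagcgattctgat

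The boxes matched the names. ACA, ending 2 to 4 nt before the 3′ end, was present in 32 of 34 H/ACA genes with a GENCODE model (94.1%) and in 2 of 73 C/D genes (2.74%). CTGA in the last 20 nt was present in 71 of 73 C/D genes (97.3%) and in 3 of 34 H/ACA genes (8.82%), and TGATGA in the first 30 nt in 47 of 73 C/D genes (64.4%) and in 0 of 34 H/ACA genes. Only the RNA strand was searched, and a match is a description of the letters, not of function.

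Most of these RNAs were listed at exactly 0. Of the 1652 values of the 118 RNAs in 14 libraries, 61.1% were 0, and single libraries listed 66 to 79 of the 118 at 0. At 0 in every library were 51 RNAs, and 24 were above 0 in every library. The classes differed in this. Of the H/ACA snoRNAs, 16.3% of values were 0 in the saline libraries and 32.4% in the cocaine libraries, of the C/D snoRNAs 83.4% and 79.2%, and of the scaRNAs 51.4% and 38.89%. Each saline library listed 4 to 10 of the 36 H/ACA snoRNAs at 0, and each cocaine library 9 to 16, so that the ranges overlapped.

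**Figure D1:**
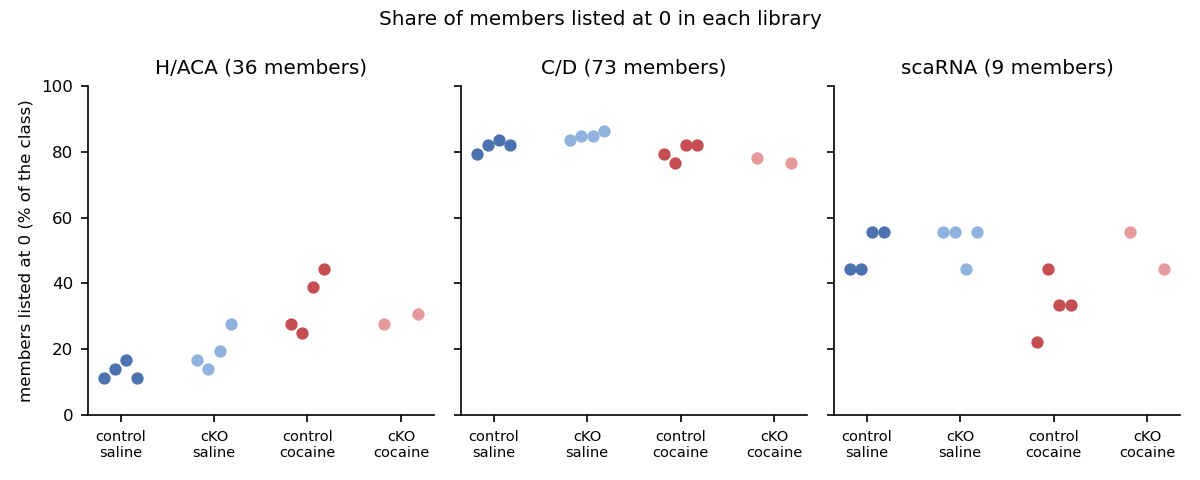
Percentage of H/ACA, C/D and scaRNA genes listed at 0 TPM in each of the 14 libraries, with libraries grouped by label. C/D snoRNAs were at 0 most often in every library, and H/ACA snoRNAs were at 0 in 32.4% of values after cocaine and 16.3% after saline.

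The share at 0 went with the length of the gene model from which TPM was computed. The deposited values follow the RefSeq gene models: in 19 pairs of these RNAs with the same TPM above 1 in a library (equal within 5e-06), both had the same RefSeq model length in all 19 pairs and the same GENCODE length in 7. The RefSeq models were shorter than the GENCODE M21 models for 95 of the 118 RNAs, with a median of 82.5 against 93.5 nt. H/ACA models had a median length of 119.5 nt and 32 of 36 were longer than 100 nt. C/D models had a median of 68 nt and 5 of 73 were longer than 100 nt. Among the 152 genes of any kind with models of 28 to 60 nt, 23 of them snoRNAs or scaRNAs, none was above 0 in any library. Snord64, a C/D snoRNA of the Prader-Willi region with a 46-nt model, is among these, so its value of 0 carries no information on the RNA.

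Up to 102 nt the scale itself differed between the treatments at most lengths. Within a library, values of genes with the same model length were mostly whole multiples of the smallest value above 0 at that length: this held, within 0.1%, for 208 of the 273 values of the tested RNAs that lay above the smallest one (76.2%). How many reads make up such a step is not known. For models of 103 to 110 nt, the smallest value above 0 had a median of 10.4 TPM over the saline libraries and 9.54 TPM over the cocaine libraries. For 111 to 130 nt the medians were 3.57 and 4.03 TPM, and for 131 to 150 nt 2.49 and 2.78 TPM. For 99 to 102 nt, in contrast, they were 0.396 and 22.8 TPM, and for 85 to 92 nt 0.437 and 6.73 TPM. For RefSeq models of 61 to 84 nt, none of 644 genes was above 0 in any saline library, whereas 50 were in a cocaine library, where the smallest values were 4.39 to 7.40 TPM. For 93 to 98 nt as a whole the medians were close, at 9.79 and 8.47 TPM, although at exactly 98 nt they were 10.3 and 38.2 TPM. The length classes were chosen after the values were seen, and they hold all genes, not only snoRNAs and scaRNAs. At the lengths where the steps differ, a fold change between treatments contains this difference in scale, and an effect of cocaine cannot be told apart from it. Just above this range the difference had the other sign: at 105 nt the smallest values were 17.4 to 57.3 TPM in the saline and 10.1 to 15.6 TPM in the cocaine libraries. The RNAs with models over 102 nt are described first, and the shortest of those named, Snora30, has 107 nt.

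**Figure D2:**
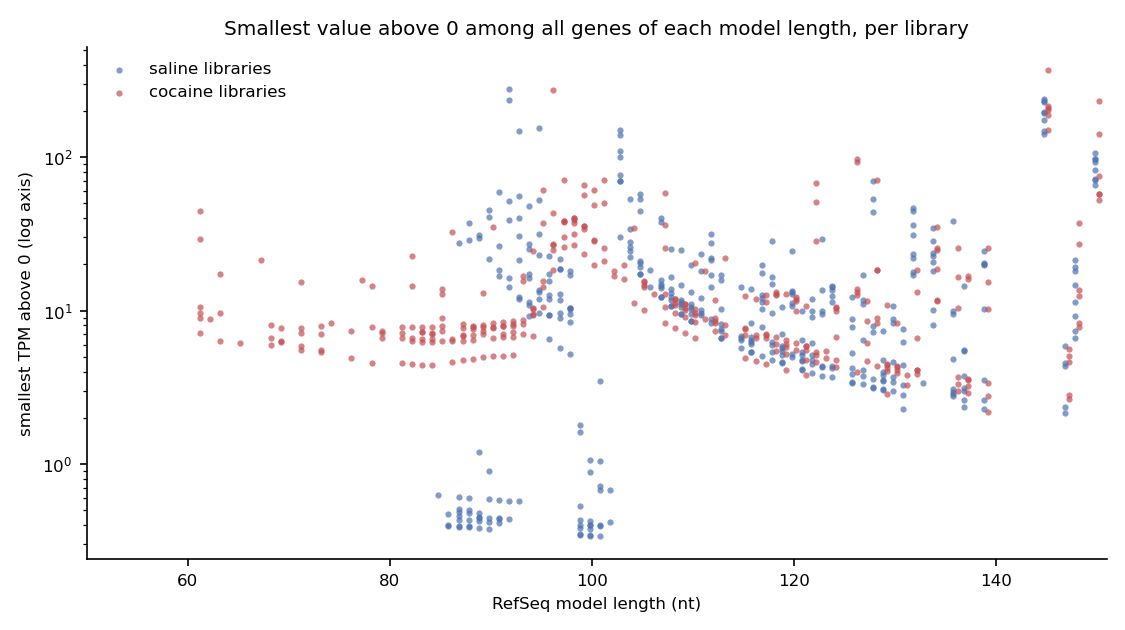
Smallest TPM above 0 among all genes of each RefSeq model length from 50 to 150 nt (log axis), per library, with saline libraries in blue and cocaine libraries in red. The colours overlap at every length from 107 nt on where both have values, and the medians of each class differ at 85 to 92 nt (0.437 TPM saline and 6.73 TPM cocaine, with some saline libraries above the cocaine ones) and at 99 to 102 nt (0.396 and 22.8 TPM).

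In the comparison of cocaine with saline averaged over both genotype labels, 10 of the 57 tested RNAs were higher and 9 were lower (limma, adjusted p under 0.05 and a log2 fold change of at least 0.5 in size, on log2 of TMM-scaled TPM plus 0.5). Over all 13471 genes, 1.05% were called higher and 1.02% lower. Without the fold change minimum, 19 of the 57 RNAs and 4456 of the 13471 genes had an adjusted p under 0.05, which are close shares. The larger share of calls among these RNAs thus came with the fold change minimum. An exact permutation test gave an adjusted p under 0.05 for 15 of the 57 RNAs and 4096 of the 13471 genes. By class, 4 H/ACA snoRNAs were higher and 7 lower of 32, with a median log2 fold change of -0.91, 4 C/D snoRNAs were higher and 1 lower of 18, with a median of 1.79, and 2 scaRNAs were higher and 1 lower of 7, with a median of -0.62. The median over all genes was 0.01. Model length ran along with class: of the 16 tested RNAs with models up to 100 nt, 6 were higher and none lower, with a median of 2.10. Of the 40 with models over 102 nt, 3 were higher and 9 lower. Of the 34 with models over 100 and up to 150 nt, 2 were higher and 5 lower, with a median of -0.78. Of 72 other tested genes of such length, 1 was higher and 11 lower, with a median of -0.70. For these other genes, the shorter of the RefSeq and GENCODE models was used. Lower values at this length were thus not particular to snoRNAs and scaRNAs. Of the 24 RNAs above 0 in every library, 5 were higher and 6 lower, with a median of -0.31. Because 6 RNAs passed the level filter through cocaine libraries alone (Snord92, Scarna10, Snord104, Snord33, Scarna2 and Snord88c) and none through saline libraries alone, the counts over tested RNAs are tilted towards higher values after cocaine. Lower RNA in whole tissue can reflect fewer cells of a type or less RNA per cell, which bulk libraries cannot tell apart.

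**Figure D3:**
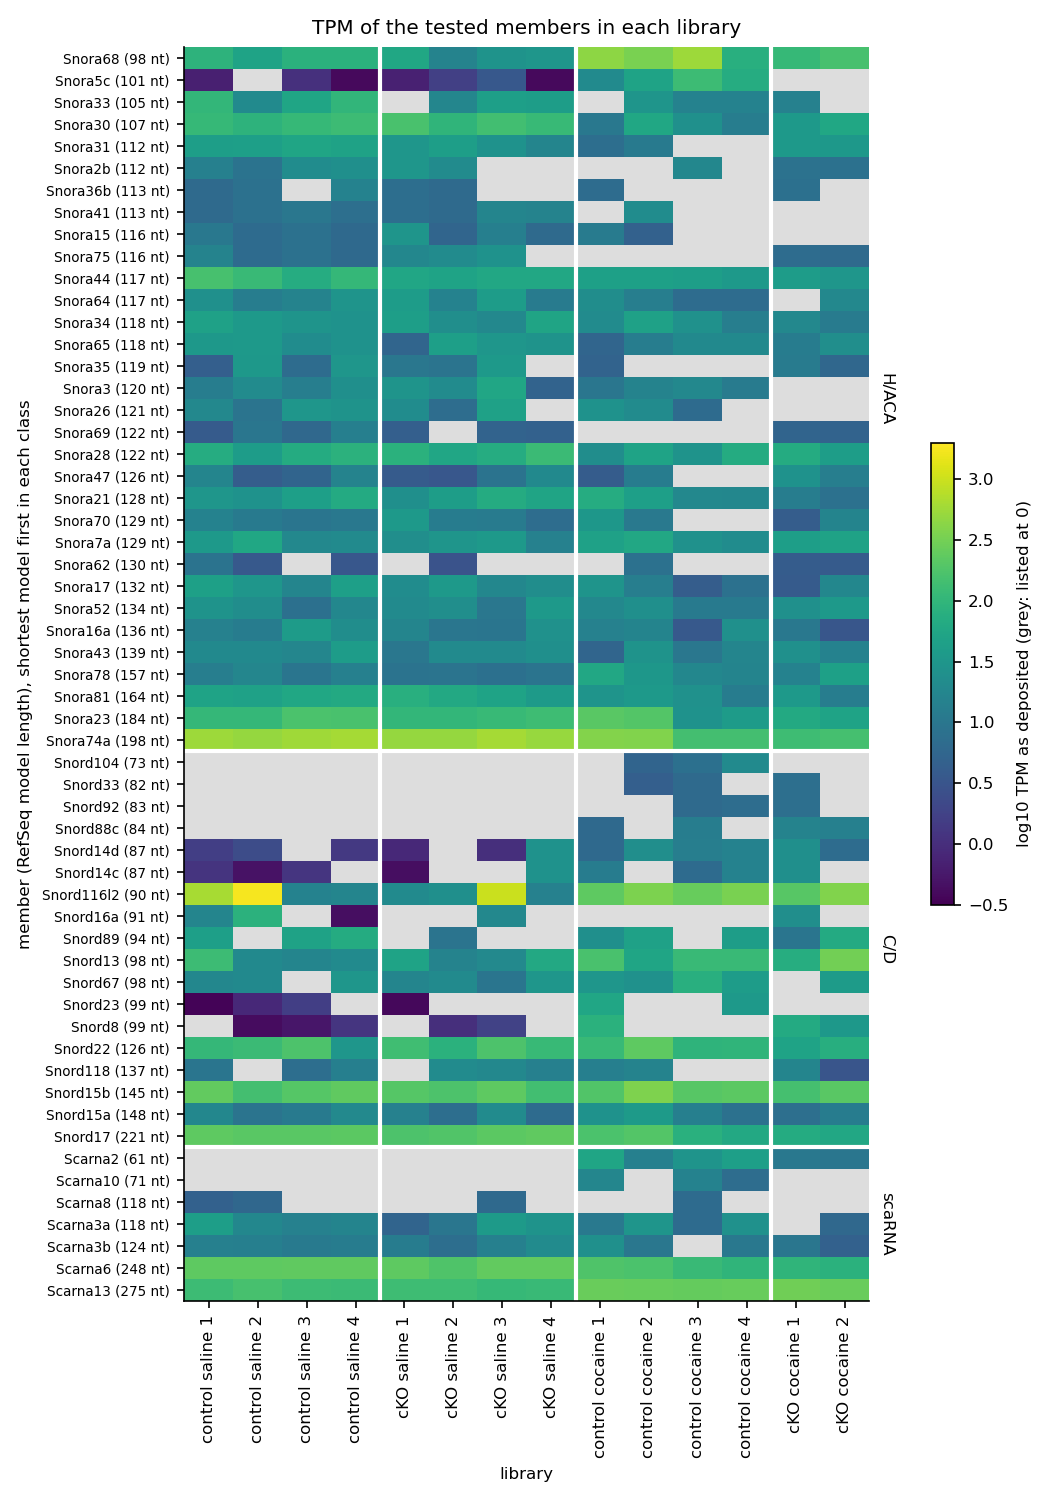
Log10 TPM of the 57 tested RNAs (rows, ordered by class and RefSeq model length) in the 14 libraries (columns, by label), with values listed at 0 in grey. 24 of these RNAs had values above 0 in every library, and 6, all with short models, only in cocaine libraries.

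Scarna13, an H/ACA-type scaRNA with a 275-nt model, had the smallest adjusted p among the RNAs with models over 102 nt. It reached 129, 157, 126 and 123 TPM in control saline, 131, 129.97, 109 and 119 in cKO saline, 267, 259, 249 and 262 in control cocaine, and 302 and 267 in cKO cocaine libraries. All 6 cocaine libraries lay above all 8 saline libraries, which was the case for 5.95% of all tested genes. The fold change was 2.77 (log2 1.47 ± 0.06 SE, adjusted p = 2.52e-08), with log2 1.33 (adjusted p = 1.49e-06) in the control and 1.61 (adjusted p = 2.5e-06) in the cKO libraries. The exact permutation test of 6 against 8 libraries gave p = 0.000333, the smallest it can give (two-sided, adjusted over all genes 0.00346). Its host, the noncoding Snhg10, moved the other way, from a mean of 4.14 TPM in saline to 2.32 TPM in cocaine libraries (log2 -0.57 ± 0.14 SE, adjusted p = 0.008).

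Snora78, an H/ACA snoRNA of the noncoding host Snhg9, was also higher in every cocaine library after TMM scaling. It was at 13.5, 17.3, 9.52 and 14.1 TPM in control saline, 8.73, 9.22, 7.88 and 9.22 in cKO saline, 59.3, 32.7, 18.4 and 16.1 in control cocaine, and 15.4 and 45.7 in cKO cocaine libraries. The lowest cocaine library, at 15.4 TPM, lay below the highest saline library before TMM scaling and above it after scaling. The fold change was 3.16 (log2 1.66 ± 0.32 SE, adjusted p = 0.00173; control 1.39, adjusted p = 0.0247; cKO 1.93, adjusted p = 0.0163). The third RNA called higher among the long models, Snora7a, an H/ACA snoRNA of the ribosomal protein gene Rpl32, was at 14.7 to 57.2 TPM in saline and 22.2 to 60.3 TPM in cocaine libraries, which overlapped widely (log2 0.92 ± 0.30 SE, adjusted p = 0.0304, exact permutation p = 0.018, adjusted 0.0564). It lost its call in 8 of 23 alternative settings.

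The most abundant of these RNAs was lower after cocaine. Snora74a, an H/ACA snoRNA with a 198-nt model, was at 547, 496, 579 and 606 TPM in control saline, 507, 506, 616 and 511 in cKO saline, 392, 375, 146 and 146 in control cocaine, and 133 and 149.6 in cKO cocaine libraries. On this scale no cocaine library reached the lowest saline library, whereas after TMM scaling the groups overlapped. Control cocaine libraries 1 and 2 were more than 2-fold above libraries 3 and 4. After TMM scaling the fold change was 0.438 (log2 -1.19 ± 0.22 SE, adjusted p = 0.00149), with log2 -0.86 (adjusted p = 0.0422) in the control and -1.52 (adjusted p = 0.00928) in the cKO libraries. The call in the control libraries alone was lost in 13 of 23 alternative settings, with adjusted p up to 0.269, and the call in the average in none.

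The same division of the control cocaine libraries was seen in other long models. Scarna6, a scaRNA with a 248-nt model in the Atg16l1 gene, was at 179 to 243 TPM in the saline libraries, 182, 169, 121 and 97.9 in control cocaine and 98.1 and 85.01 in cKO cocaine libraries (log2 -0.62 ± 0.13 SE, adjusted p = 0.00269). Within labels it passed in the cKO libraries (-0.88, adjusted p = 0.00936) and not in the control libraries (-0.37, adjusted p = 0.113). Snord17, the only C/D snoRNA called lower, was at 171 to 232 TPM in the saline libraries, 166, 192, 82.1 and 62.6 in control cocaine and 70.0 and 60.9 in cKO cocaine libraries (log2 -0.90 ± 0.22 SE, adjusted p = 0.00761; exact permutation p = 0.0173, adjusted 0.055). Snora23, an H/ACA snoRNA of 184 nt that was not called, had the same order of libraries, at 105 to 165 TPM in the saline libraries, 213, 194.5, 27.6 and 38.4 in control cocaine and 64.9 and 51.1 in cKO cocaine libraries. What sets control cocaine libraries 1 and 2 apart from 3 and 4 for these RNAs was not tested.

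**Figure D4:**
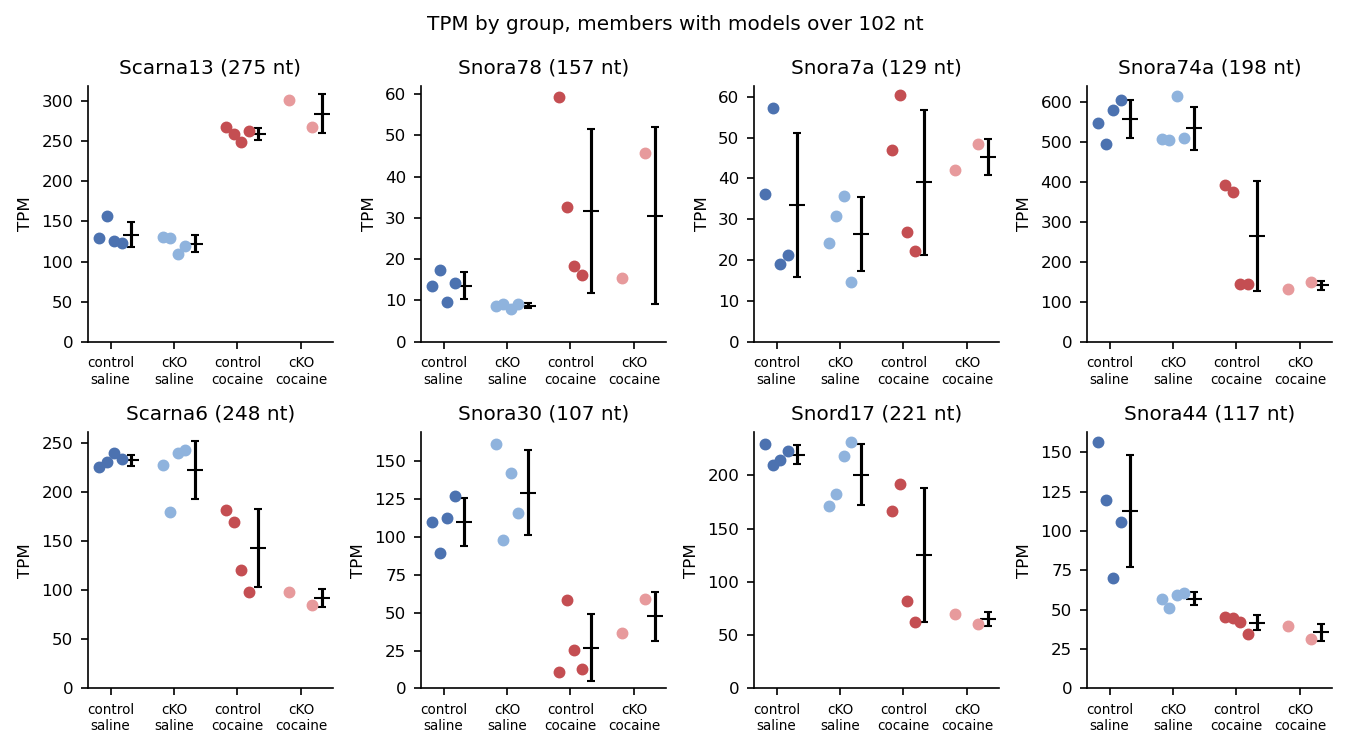
TPM of 8 RNAs with models over 102 nt in each library, by label, with black bars for the mean ± SD of each group. Scarna13 lay at 249 to 302 TPM in the cocaine and 109 to 157 TPM in the saline libraries, and Snora74a, Scarna6 and Snord17 split the control cocaine libraries into a higher and a lower pair.

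Snora30, an H/ACA snoRNA in the Srcap gene, was below all 8 saline libraries in all 6 cocaine libraries, as were 5.00% of all tested genes. It was at 110.1, 89.3, 113 and 127 TPM in control saline, 161, 97.7, 142 and 116 in cKO saline, 10.5, 58.3, 25.6 and 12.9 in control cocaine, and 36.3 and 58.9 in cKO cocaine libraries (log2 -1.51 ± 0.33 SE, adjusted p = 0.00383; exact permutation p = 0.000333, adjusted 0.00346). Within labels it passed in the control libraries (-1.96, adjusted p = 0.00512) and not in the cKO libraries (-1.06, adjusted p = 0.165). In 5 of the 6 cocaine libraries its value was itself the smallest above 0 of the 12 genes with a 107-nt model, so that steps could not be counted there. In the other, control cocaine library 2, it was 7 such steps, and in the saline libraries 3 to 9.

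Snora44 and Snora81 were also called lower in the average, and are named here after their values were seen. Snora44, an H/ACA snoRNA of the noncoding Snhg12, had a mean of 113 ± 35.6 TPM (SD, n = 4) in control saline, 56.9 ± 4.18 (n = 4) in cKO saline, 41.8 ± 4.97 (n = 4) in control cocaine and 35.6 ± 5.64 (n = 2) in cKO cocaine libraries (log2 -0.65 ± 0.15 SE, adjusted p = 0.00597). Snora81, in the Eif4a2 gene, had means of 54.9 ± 7.51, 57.1 ± 17.6, 25.6 ± 9.48 and 24.1 ± 15.8 TPM in the same order (log2 -0.88 ± 0.26 SE, adjusted p = 0.0192). Within labels Snora44 passed in the control libraries (-1.005, adjusted p = 0.00299) and not in the cKO libraries (-0.29, adjusted p = 0.424). Snora81 passed in neither the control (-0.80, adjusted p = 0.0911) nor the cKO libraries (-0.95, adjusted p = 0.110). The exact permutation test gave p = 0.043 for Snora44 (adjusted 0.109) and p = 0.001665 for Snora81 (adjusted 0.0099).

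Snora41 and Snora15 were low after saline and at 0 in most cocaine libraries. Snora41, an H/ACA snoRNA of the elongation factor gene Eef1b2, was at 6.59 to 17.1 TPM in the saline libraries, and was listed at 0 in every cocaine library except control cocaine library 2, at 22.02 TPM. In each library where Snora41 was above 0, its value was itself the smallest above 0 of the 5 genes with a 113-nt model. Its saline values thus lay at the floor of that length, and steps could not be counted. Snora15, in Cct6a, was at 5.41 to 30.1 TPM in the saline libraries, at 11.9 and 4.71 TPM in control cocaine libraries 1 and 2 and at 0 in the other cocaine libraries. Both passed the test (adjusted p = 0.00553 and 0.00666), and their fitted fold changes depend on the constant added before taking logs. In the control libraries alone, Snora31, Snora75, Snora35 and Snora69 were also called lower, among 7 lower and 9 higher of the 57 RNAs, against 1.66% and 1.43% of all genes. Snora75 was at 6.21 to 16.0 TPM in control saline and 0 in all 4 control cocaine libraries, and Snora35 at 4.53 to 34.0 TPM in control saline and at 5.21, 0, 0 and 0 TPM in control cocaine libraries, a call lost in 8 of 23 alternative settings. Snora31 was at 43.0, 44.4, 55.1 and 49.6 TPM in control saline and 7.41, 11.7, 0 and 0 in control cocaine libraries (log2 -4.20, adjusted p = 0.00583), but at 34.2 and 33.1 TPM in cKO cocaine libraries. In the cKO libraries the log2 fold changes of Snora31, Snora35 and Snora75 were 0.63, 0.79 and 0.08, and none of them passed the test. In the cKO libraries alone, 7 of the 57 were called higher and 7 lower, against 1.97% and 1.17% of all genes. Of the RNAs called higher, 3 in the control and 2 in the cKO libraries had passed the level filter through cocaine libraries alone. The counts within labels are thus also tilted towards higher values after cocaine. Without the fold change minimum, 16 of the 57 RNAs and 3287 of all 13471 genes passed in the control libraries. In the cKO libraries these numbers were 14 and 2720.

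Abundant RNAs of the same classes did not all move. Snord15b, a C/D snoRNA with a 145-nt model, was at 204 ± 42.0 TPM (SD, n = 4) in control saline, 186 ± 37.5 (n = 4) in cKO saline, 244 ± 84.6 (n = 4) in control cocaine and 180 ± 41.6 (n = 2) in cKO cocaine libraries, and was not called in any comparison. Snord22, with a 126-nt model, was at 31.2 to 176 TPM in the saline and 50.9 to 231 TPM in the cocaine libraries and was not called. Scarna3a and Scarna3b, whose values lay at 5.38 to 43.0 and 7.37 to 21.9 TPM in the saline libraries, were not called either. Scarna8 was above 0 in 4 libraries, at 4.77 to 6.71 TPM. Snord118, which encodes the U8 snoRNA needed for ribosomal RNA processing, was at 0 to 21.7 TPM in the saline and 0 to 16.9 TPM in the cocaine libraries and was not called.

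Among the short models, the RNAs called higher are given with their steps. Scarna2 was listed at 0 in all 8 saline libraries and was at 53.9, 14.3, 29.2 and 44.4 TPM in control cocaine and 10.5 and 9.72 TPM in cKO cocaine libraries. Its model has 61 nt, and no gene with a RefSeq model of 61 to 84 nt was above 0 in any saline library. Snord88c, a C/D snoRNA with an 84-nt model, was likewise at 0 in all saline libraries, and in cocaine libraries it was at 6.26, 0, 13.02 and 0 TPM (control) and 15.6 and 14.1 TPM (cKO). Scarna10, at 17.6, 0, 15.4 and 7.11 TPM, and Snord104, at 0, 5.35, 7.97 and 21.1 TPM, were called higher in the control libraries alone and were at 0 in every saline and cKO cocaine library. In the saline libraries every other gene of these model lengths was at 0 as well.

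Snora68, an H/ACA snoRNA, had a 98-nt model. It was at 90.8, 50.9, 84.1 and 83.5 TPM in control saline, 57.7, 15.6, 28.4 and 31.2 in cKO saline, 445.5, 347, 561 and 79.97 in control cocaine, and 111.9 and 156 in cKO cocaine libraries (log2 2.41 ± 0.43 SE, 5.3-fold, adjusted p = 0.00107). The smallest value above 0 at 98 nt had a median of 10.3 TPM in the saline and 38.2 TPM in the cocaine libraries, a ratio of 3.71. Counted in such steps, Snora68 was at 14, 13, 14 and 2 steps in control cocaine and 3 and 4 in cKO cocaine libraries, against 3 to 8 in the 6 saline libraries where its value was a whole multiple. In TPM the lowest cocaine library (79.97) lay below the highest saline library (90.8), and after TMM scaling the groups did not overlap. In steps, control cocaine libraries 1 to 3 were above the saline libraries, and the other 3 cocaine libraries were not.

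Snord13, a C/D snoRNA with the same model length, was called higher in TPM and not separated in steps. It was at 127, 20.4, 16.95 and 20.9 TPM in control saline, 50.6, 15.6, 19.5 and 62.4 in cKO saline, 159, 53.3, 120.1 and 119.9 in control cocaine, and 74.6 and 313 in cKO cocaine libraries (log2 2.38 ± 0.56 SE, adjusted p = 0.00608). In steps it was at 1 to 7 in the saline and 2 to 8 in the cocaine libraries. Snord14d behaved likewise: it was at 0 to 27.7 TPM in the saline and 6.33 to 24.5 TPM in the cocaine libraries (log2 3.15 ± 0.78 SE, adjusted p = 0.00802), which corresponded to 0 to 5 steps and 1 to 5 steps. Its neighbour Snord14c had the same TPM as Snord14d in cKO saline library 4 (27.7), control cocaine library 4 (15.3) and cKO cocaine library 1 (24.5), and reads that both copies could yield make the 2 values uncertain.

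Snord8, a C/D snoRNA of the Chd8 gene with a 99-nt model, was at 0 to 1.78 TPM in the saline libraries and at 85.6, 0, 0 and 0 TPM in control cocaine and 66.4 and 34.1 TPM in cKO cocaine libraries (log2 3.49 ± 1.09 SE, adjusted p = 0.0268). The exact permutation test did not separate the treatments (p = 0.0952, adjusted 0.197). Snord116l2, the only Snord116 copy among the listed symbols, with a 90-nt model, was not called: it was at 627, 1793, 15.3 and 17.2 TPM in control saline, 20.9, 24.5, 975 and 14.7 in cKO saline, 225, 351, 260.5 and 338 in control cocaine, and 203 and 381 in cKO cocaine libraries. Its saline values thus fell into 3 libraries above and 5 libraries far below every cocaine library. Near-identical Snord116 copies can share reads, so its level is uncertain.

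**Figure D5:**
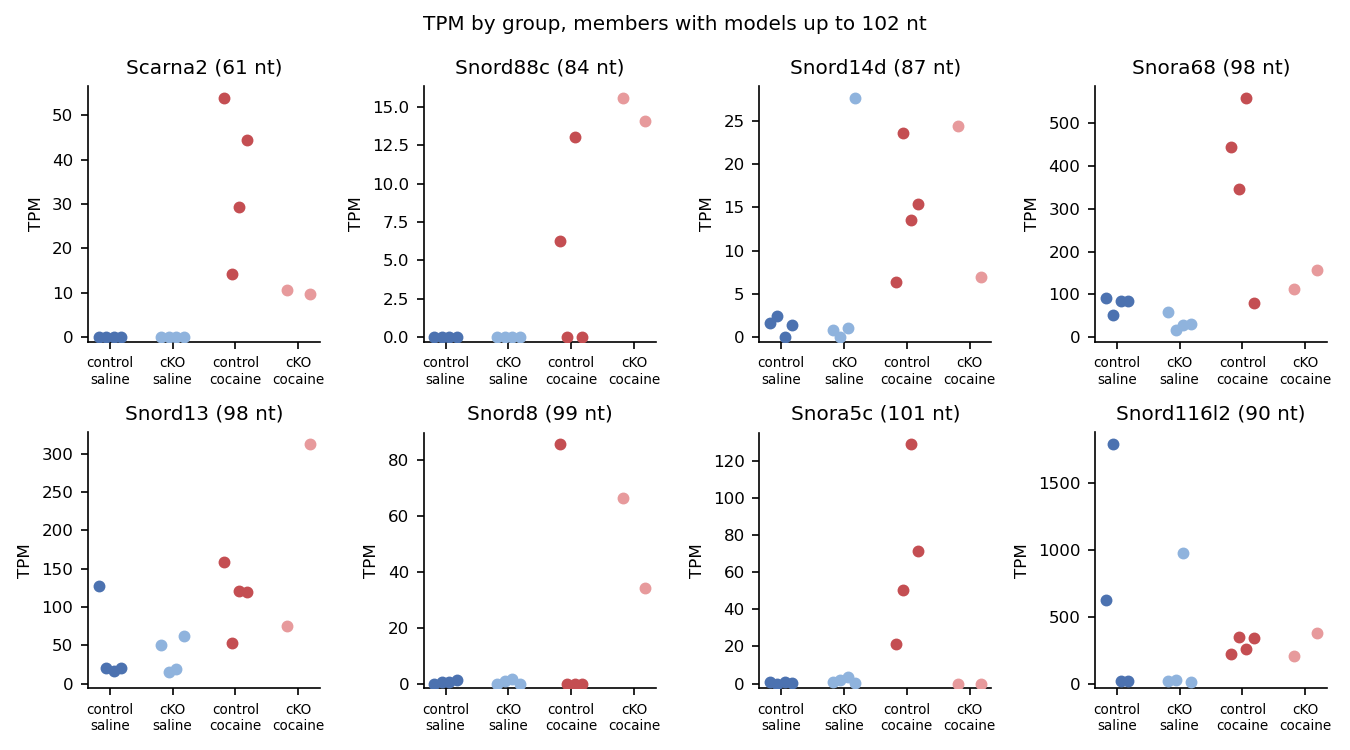
TPM of 8 RNAs with models up to 102 nt in each library, by label. Scarna2 and Snord88c were listed at 0 in all saline libraries, as was every gene of their model lengths, and Snord116l2 ranged from 14.7 to 1793 TPM within the saline libraries.

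Between the genotype labels, few of these RNAs differed. After saline, 0 of 57 were called (limma), against 0.0520% of all genes, and 5 (8.77%) had an unadjusted p under 0.05, against 16.7% of all genes. After cocaine, 2 were lower in the libraries labelled cKO than in those labelled control, against 0.0371% of all genes, and 18 (31.6%) had an unadjusted p under 0.05, against 11.9% of all genes. Both were H/ACA snoRNAs whose 2 cKO cocaine libraries were at 0. Of the 18 with an unadjusted p under 0.05, 14 were among the 33 RNAs at 0 in some library. Of the 24 RNAs above 0 in every library, 4 (16.7%) had such a p-value. Of the 6 RNAs that passed the filter through cocaine libraries alone, 4 did. The share of 31.6% is thus not a result about these RNAs in general. Snora3, in the ribosomal protein gene Rpl27a, was at 9.98, 15.8, 18.5 and 12.2 TPM in control cocaine and 0 and 0 in cKO cocaine libraries, with 5.19 to 56.3 TPM in the saline libraries, and was among the RNAs called lower in the average (log2 -2.61 ± 0.40 SE, adjusted p = 0.000357). That average came from the cKO libraries (log2 -5.24, adjusted p = 0.000314), with 0.02 (adjusted p = 0.979) in the control libraries. The exact permutation test did not separate the treatments for Snora3 (p = 0.107, adjusted 0.215). Snora5c was at 21.0, 50.6, 129 and 71.5 TPM in control cocaine and 0 and 0 in cKO cocaine libraries, with 0 to 3.49 TPM in the saline libraries, and was among those called higher in the average (log2 2.25 ± 0.42 SE, adjusted p = 0.00151). That average joined opposite directions, with log2 6.18 (adjusted p = 2.61e-05) in the control and -1.68 (adjusted p = 0.0886) in the cKO libraries. The exact permutation test gave p = 0.0283 for Snora5c (adjusted 0.0795). Its model, slightly longer than that of Snord8, lies in the range where the step differed between treatments.

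The interaction, which tests whether the cocaine effect differed between the labels, was called for 3 of the 57, against 0.802% of all genes. For 16 RNAs (28.1%) the unadjusted p was under 0.05, against 18.1% of all genes. Of these 16, 13 were among the 33 RNAs at 0 in some library (39.4%). The 24 RNAs above 0 in every library held 3 (12.5%), a smaller share than that of all genes. Of the 6 RNAs that passed the filter through cocaine libraries alone, 3 were among the 16. The interaction was -7.86 ± 0.84 SE on the log2 scale for Snora5c (adjusted p = 0.00214) and -5.27 ± 0.79 SE for Snora3 (adjusted p = 0.0115). For Snora69 it was 5.18 ± 0.96 SE (adjusted p = 0.028): this H/ACA snoRNA was at 3.93, 9.88, 6.15 and 13.7 TPM in control saline, 0 in all 4 control cocaine libraries, 4.47, 0, 5.15 and 4.75 in cKO saline, and 5.35 and 5.12 TPM in cKO cocaine libraries. Wherever Snora69 was above 0, except in control saline library 4, its value was itself the smallest above 0 at its model length. With 2 cKO cocaine libraries, and with Maged1 against the labels after cocaine, these differences between the labels cannot be attributed to genotype.

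The genes around these RNAs moved little. Of the 45 distinct host genes of tested RNAs, 1 was called in the comparison averaged over labels, the host of Scarna13 named above. Hosts of other called RNAs, such as Srcap (0.24, host of Snora30), Snhg12 (0.30, Snora44) and Eif4a2 (-0.34, Snora81), moved less than that, and over all tested hosts the log2 fold change ranged from -0.57 to 0.39. Of 26 tested genes for particle proteins, assembly factors, Cajal body proteins and trimming enzymes, 1 was called, Gar1, a protein of the H/ACA particle, which was higher (log2 0.60 ± 0.06 SE), and the median was 0.07. Fbl, which encodes fibrillarin, changed by 0.27, less than the fold change asked for.

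Other short noncoding RNAs moved in both directions. Of 9 tested, 3 were higher and 1 lower: Bc1, a brain-specific cytoplasmic RNA, by log2 2.10, Gm20594 by 2.64 and Rnu11, the U11 small nuclear RNA of the minor spliceosome, by 2.17, with Rnu6 at -0.82. Of 1151 listed microRNA genes, 872 were at 0 in every library and 145 were tested, of which 9 were higher and 11 lower with a median of -0.44. Gm20594 and Bc1 took a large share of the cocaine libraries, with 34892 to 57954 and 32581 to 58664 TPM against 7326 to 14514 and 11265 to 16686 TPM in the saline libraries. Values are shares of a library, and TMM factors were 1.07 to 1.22 in the saline and 0.807 to 0.939 in the cocaine libraries.

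The 9 marker genes of thalamic glutamatergic neurons were all above the filter, and summed to 516 to 783 TPM in the saline and 457 to 625 TPM in the cocaine libraries. No other tissue was compared, so these sums alone cannot identify the region. Markers of the neighbouring hypothalamus summed to 11.9 to 526 TPM in the saline and 3.42 to 111.9 TPM in the cocaine libraries, with 3 of 7 called lower after cocaine. None of the other marker lists held a called gene in that comparison, but some varied widely within a group. Ependyma and choroid plexus markers summed to 25.2 to 1545 TPM in control saline and 5.58 to 51.9 TPM in cKO saline libraries. After cocaine they summed to 5.90 to 26.1 TPM in control and 17.1 to 18.4 TPM in cKO libraries. Habenula markers summed to 4.98 to 116 TPM in control cocaine and 45.5 to 63.9 TPM in control saline libraries. The part of these markers in the differences of snoRNAs was not tested. The listed values of a library summed to 312659 to 377401 TPM, of which snoRNAs and scaRNAs took 0.664% to 1.28% in the saline and 0.521% to 1.03% in the cocaine libraries. Read totals of single libraries were not used here, so no counting error was computed for a TPM value.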

How the data were processed

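The authors sequenced ribosomal RNA-depleted total RNA of the thalamus with a strand-specific kit and paired 100-nt reads, and deposited 1 table of TPM values per library. Per the submitters' processing notes and the study's methods, reads were aligned with STAR 2.5.3a, quantified with Salmon on GRCm38 and summarised with tximport. The methods name an Ensembl annotation, whereas the listed symbols and model lengths follow RefSeq. In 2 of the 14 deposited tables the TPM values use a decimal comma (control saline library 4 and cKO cocaine library 1), and these were read as decimal points. The methods state a common sequencing depth for all samples. Read totals of single libraries were not used here, so no counting error was computed.

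TPM values were divided by TMM (trimmed mean of M-values) factors, computed here with 30% of log ratios and 5% of mean values trimmed on each side, and genes that reached 1 TPM in 3 or more libraries were kept. Log2(TPM + 0.5) was fitted with limma 3.58.1 (R 4.3.3) with 4 group means and an intensity trend, and p-values were adjusted by Benjamini-Hochberg over all 13471 genes. Fold changes are on this scale and understate changes of low values. A call needs an adjusted p under 0.05 and a log2 change of 0.5 or more in size. Single RNAs were also tested by an exact two-sided permutation test of 6 cocaine against 8 saline libraries. Printed TPM are as deposited unless said to be scaled. Python 3.11.15, numpy 2.4.6, pandas 2.3.3 and scipy 1.17.1 were used, and the fit was tested on simulated data.

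The RNAs, gene lists and length classes were chosen with earlier results of these data known. The RNAs named were the most abundant 3 per class, the called ones with the smallest adjusted p per class and direction (up to 4) or the largest change within a label (up to 3), all scaRNAs past the filter, and a fixed set of well-known or brain-enriched snoRNAs. Hosts were read from the GENCODE M21 annotation. Some sequences and 1 host gene are not reported here.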

Additional observations from a re-analysis of the deposited data

Results flagged for a closer look

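Of 87 groups of 4 libraries tested for a library far from the others (Dixon's test at 95%), 17 were marked. For continuous values, chance marks about 1 in 20 groups. A group with 1 library above 0 and the others at 0 is always marked, and such groups are among the 17. The 17 can therefore not be set against that rate. Among the RNAs with long models, Scarna13 was highest in control saline library 2, at 157 TPM, and Snora74a in cKO saline library 3, at 616 TPM. Snord15b (369.9 TPM) and Snord22 (231 TPM) were both highest in control cocaine library 2, as was Snora41, at 22.02 TPM with the other 3 libraries at 0. Scarna3a was highest in control saline library 1, at 43.0 TPM. Snora69 was lowest in cKO saline library 2, at 0 TPM, and Snora35 highest in control cocaine library 1, at 5.21 TPM with the others at 0. Scarna8 was above 0 in a single library of its group in cKO saline (library 3, 6.23 TPM) and control cocaine (library 3, 6.71 TPM).

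Among the RNAs with models up to 102 nt, Snord116l2 was highest in cKO saline library 3, at 975 TPM, and Snord13 in control saline library 1, at 127 TPM. Snord14c and Snord14d were both highest in cKO saline library 4, at 27.7 TPM each, where the smallest value above 0 at their model length was that same value. Snord14a was above 0 in a single library of its group in control saline (library 3, 0.608 TPM) and cKO saline (library 1, 0.432 TPM), and Snord8 in control cocaine (library 1, 85.6 TPM).

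The cocaine effect differed between the genotype labels, by limma's interaction term, for Snora69 (log2 5.18), Snora3 (log2 -5.27) and Snora5c (log2 -7.86). Each of these contrasts includes a group at 0 in every library, so that its size depends on the constant added before taking logs.

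Some RNAs below the level filter were above 0 in cocaine libraries, with highest values of 8.82 TPM for Scarna17, 7.79 for Snord55, 15.8 for Snord83b, 8.16 for Snord14a, 6.93 for Snord35b, 8.02 for Snord82, 6.61 for Snord100 and 13.6 for Snord32a, above their highest saline values. The smallest value above 0 at such model lengths was also higher in cocaine libraries or above 0 in them alone. Snord35a and Snord123, also below the filter, went the other way. Snord35a was at 59.3 TPM in control saline library 1, and its highest cocaine value was 4.95 TPM. Snord123 was above 0 in control saline library 1 alone, at 0.391 TPM.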

How the results depend on the processing

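Across 49 calls of named RNAs and 23 alternative settings each, 1003 of 1127 values kept their direction and call, 124 kept their direction and lost the call, and 0 changed sign. These 23 leave out the fits without a filter, without an intensity trend and with only the groups compared, in which further calls were lost. In the control libraries Snora74a lost its call in all of these (limma, adjusted p = 0.0711, 0.0502 and 0.108). Snora7a lost its call in the average without a filter (adjusted p = 0.0513). Without a scaling factor the median log2 fold change of all genes moved to -0.34 (average), -0.34 (control) and -0.35 (cKO), and the counts of called RNAs became 13 higher and 19 lower (32) against 10 and 9 in the average, 10 and 15 (25) against 9 and 7 in the control libraries, and 7 and 14 against 7 and 7 in the cKO libraries. With only the libraries whose labels agree, the called RNAs numbered 11, 5 and 3 in these comparisons and 1 for the interaction, and with the genotype field in place of the title 1 for the interaction. These counts hold fewer or other libraries per group. With a filter at a mean of 5 TPM, 1 RNA was called lower in cKO after saline, and with only the groups compared in the fit, 4 differed between the labels after cocaine (2 higher and 2 lower). The cause was not tested. The counts without a scaling factor contain the shift in the median of all genes. For the settings in this section the share of all genes called is not given. The counts of called RNAs under them are therefore not a result particular to these RNAs.

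Restrictions to some of the RNAs were chosen after seeing the data, and they hold fewer RNAs by construction. With models over 102 nt alone, 12 RNAs were called in the average, 9 in the control and 9 in the cKO libraries, and 1 between the labels after cocaine. With models over 100 nt, 10 and 9 were called in the control and cKO libraries. With RNAs above 0 in every library, 11, 7 and 8 were called for cocaine, and 0 for the labels after cocaine and the interaction. Of the values of RNAs passing the filter, 22.1% were 0.

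Leaving out 1 library at a time gave 18 to 26 called RNAs in the average, 12 to 20 in the control and 6 to 14 in the cKO libraries, 0 to 1 and 0 to 4 between the labels after saline and cocaine, and 1 to 6 for the interaction. The cKO count was 8 without cKO cocaine library 1 and 6 without library 2, where the lone library is assumed to vary like the other groups. The count after cocaine was 4 without control cocaine library 1 or 2, 1 without cKO cocaine library 1 and 0 without cKO cocaine library 2, and that after saline was 1 without control saline library 3. The interaction count was 5 and 6 without control cocaine library 1 and 2, and 1 without cKO cocaine library 1.

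In the average, the calls of Scarna13, Snora78, Snora74a, Scarna6 and Snora3, all with models over 102 nt, were lost in none of these settings. The same holds for Snora68, Snora5c, Scarna2 and Snord88c, which says nothing of their stability, since their models are of lengths where the step differed. The average of Snora3 came from the cKO libraries (log2 -5.24) and not from the control libraries (0.02), with the cKO cocaine libraries at 0. In the control libraries alone, the call of Snora74a was lost in 13 of 23 settings. Snora30 (adjusted p = 0.0556) and Snord17 (0.0533) lost theirs with the label-agreeing libraries alone, Snora44 with the genotype field (0.0785), and Snora81 also without cKO cocaine library 2 (0.157), as did Snord13 (0.0575). The interaction of Snora69 fell to 2.60 (adjusted p = 0.779) with the genotype field, and that of Snora5c was -8.15 (adjusted p = 0.0703) with the label-agreeing libraries.

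The titles number the libraries within each group. Same-numbered libraries did not deviate together (mean correlation -0.0138 over 18 pairs, against 0.00458 over 54 pairs of different numbers), so the numbers were not taken as pairs. With the replicate block, 24 RNAs were called in the average, 13 in the control and 10 in the cKO libraries, 0 and 1 between the labels after saline and cocaine, and 2 for the interaction.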
